A study of Mus musculus with 2 samples.

Results

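Cdh5, Pecam1, Cldn5, Ocln, Tjp1, Jam2, Esam and Cdh2 code for proteins of the contacts between endothelial cells, and were chosen by name as 8 of the 32285 genes in the deposited matrices. All 8 symbols were found. They were measured in single cells of the mouse retina at postnatal day 6, enriched with beads against CD31, the protein of Pecam1, so 1 of the 8 genes served in choosing the cells. The question of the series, from its title, concerns PIEZO1 in the arteriovenous malformations of hereditary hemorrhagic telangiectasia, a vessel disease that can arise from loss of ALK1, an endothelial receptor for BMP9 and BMP10. There was 1 control library (genotype Alk1f/f) and 1 library labelled Alk1 ECKO (Alk1f/f with Cdh5 CreERT2). Both carry the floxed Alk1 allele. The recombinase of the second is driven by Cdh5 and acts once tamoxifen is given, and Cdh5 is itself a member. The labels give neither the tamoxifen schedule, nor the deleted exons, nor the number of pups, and the control carries no CreERT2 in its label.

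Endothelial cells are held together by adherens junctions, in which cadherins of neighbouring cells bind each other and hold catenins on the inner side, and by tight junctions, in which claudins and occludin form strands tied to actin by ZO scaffold proteins. Immunoglobulin-like adhesion proteins such as PECAM1, JAM-B and ESAM lie in or beside these contacts. In the retina these junctions make up the inner blood-retinal barrier, and growing vessel tips open and rebuild them as they move.

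The control library held 8739 barcodes and the library labelled Alk1 ECKO 5308, with 54800465 and 62728605 UMIs (transcript molecules counted once each), and 7409 and 4093 cells were retained. Clusters were made and named without the 8 genes and without the junction lists used below; a class name means "like" that type by its markers. Endothelial cells numbered 309 in control and 1262 in the library labelled Alk1 ECKO, with all 24 endothelial markers detected in both. Another 1346 barcodes of the second library and 7 control barcodes were set aside; 1245 of the former lay nearest to endothelial cells but in clusters with a median mitochondrial share under 1%. These low-mitochondrial clusters were led by Hbb-bs, a haemoglobin gene, and correlated with an endothelial cluster at Pearson's r of 0.825 and 0.817. With doublets kept, the low-mitochondrial clusters lay nearest to mural cells (0.818 and 0.830), so their nearest class was not stable. Both libraries shared 20 barcodes, 14 of them among retained cells. Acvrl1, the gene of ALK1, stood at 115 CPM (UMIs of the gene per 1000000 UMIs of a class; 95% interval 109 to 122) in control endothelial cells and at 118 CPM (115 to 122) in those labelled Alk1 ECKO. The floxed gene was thus not lower in the second library; 3' counts check a deletion only where it removes or destabilises the counted end, and the labels do not place it. With 1 library per genotype no test between genotypes was possible, and all intervals are 95% intervals of counting error alone.

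Promoter sequences from RefSeq (build GRCm38.p6) were at hand for 3 of the 8 genes: Cldn5, Ocln and Tjp1. Those of Cldn5 and Tjp1 are shown because in control cells these were the most and the least restricted to endothelial cells of these 3. Each run gives the 250 bases before a RefSeq transcript start, read 5′ to 3′ along the gene's strand, with CG dinucleotides (the letters CG, the same on both strands) in capitals. The Cldn5 stretch, chr16:18776597-18776846 on the plus strand, holds 12, and the Tjp1 stretch, chr7:65371245-65371494 on the minus strand, holds 22. The Cldn5 stretch ends at the start of the annotated gene, while the Tjp1 stretch lies inside the annotated gene (chr7:65296165-65527781), before an internal start. Of 32851 such stretches, 92.1% hold at least 1, with a median of 6.
Cldn5: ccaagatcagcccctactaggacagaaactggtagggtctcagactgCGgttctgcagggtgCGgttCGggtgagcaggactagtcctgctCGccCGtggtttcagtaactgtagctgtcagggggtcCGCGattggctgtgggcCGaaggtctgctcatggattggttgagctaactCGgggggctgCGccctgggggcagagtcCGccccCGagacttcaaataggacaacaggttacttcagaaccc
Tjp1: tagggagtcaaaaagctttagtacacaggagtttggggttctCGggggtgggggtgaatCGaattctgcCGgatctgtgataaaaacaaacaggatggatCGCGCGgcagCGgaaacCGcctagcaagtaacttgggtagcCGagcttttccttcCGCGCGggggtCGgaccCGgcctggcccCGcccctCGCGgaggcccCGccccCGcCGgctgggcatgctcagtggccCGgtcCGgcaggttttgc

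Across the classes of the control library the genes fell into a set seen almost only in endothelial cells and a set spread over the retina. Of all UMIs of each gene in retained control cells, endothelial cells held 97.0% for Cdh5, 96.9% for Cldn5, 96.1% for Pecam1, 95.7% for Ocln and 94.95% for Esam, while they held 21.8% of all UMIs. They held 54.7% for Tjp1, 27.3% for Cdh2 and 12.6% for Jam2. In the library labelled Alk1 ECKO, where endothelial cells held 64.5% of all UMIs, these shares lay closer together. They were 76.8% to 84.9% for Cdh5, Cldn5, Pecam1, Ocln and Esam, 81.0% for Tjp1, 71.1% for Cdh2 and 66.2% for Jam2. Retained cells here include the barcodes set aside, so these shares do not measure restriction to endothelial cells alone. Of 28454 Cdh5 UMIs, 4132 lay in 101 set-aside cells with endothelial and mural transcripts. Another 509 lay in the low-mitochondrial barcodes nearest to endothelial cells. For Esam these were 3152 and 2068 of 24374 UMIs. In control rods, a class that should lack endothelial transcripts, Cdh5, Pecam1, Cldn5, Ocln and Esam stood at 0.237% to 0.687% of their endothelial CPM, beside a median of 0.317% over the 24 endothelial markers. At that level they cannot be told from free RNA in the droplets. In the same rods Tjp1 stood at 27.7%, Cdh2 at 38.8% and Jam2 at 281% of the endothelial CPM.

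**Figure D1:**
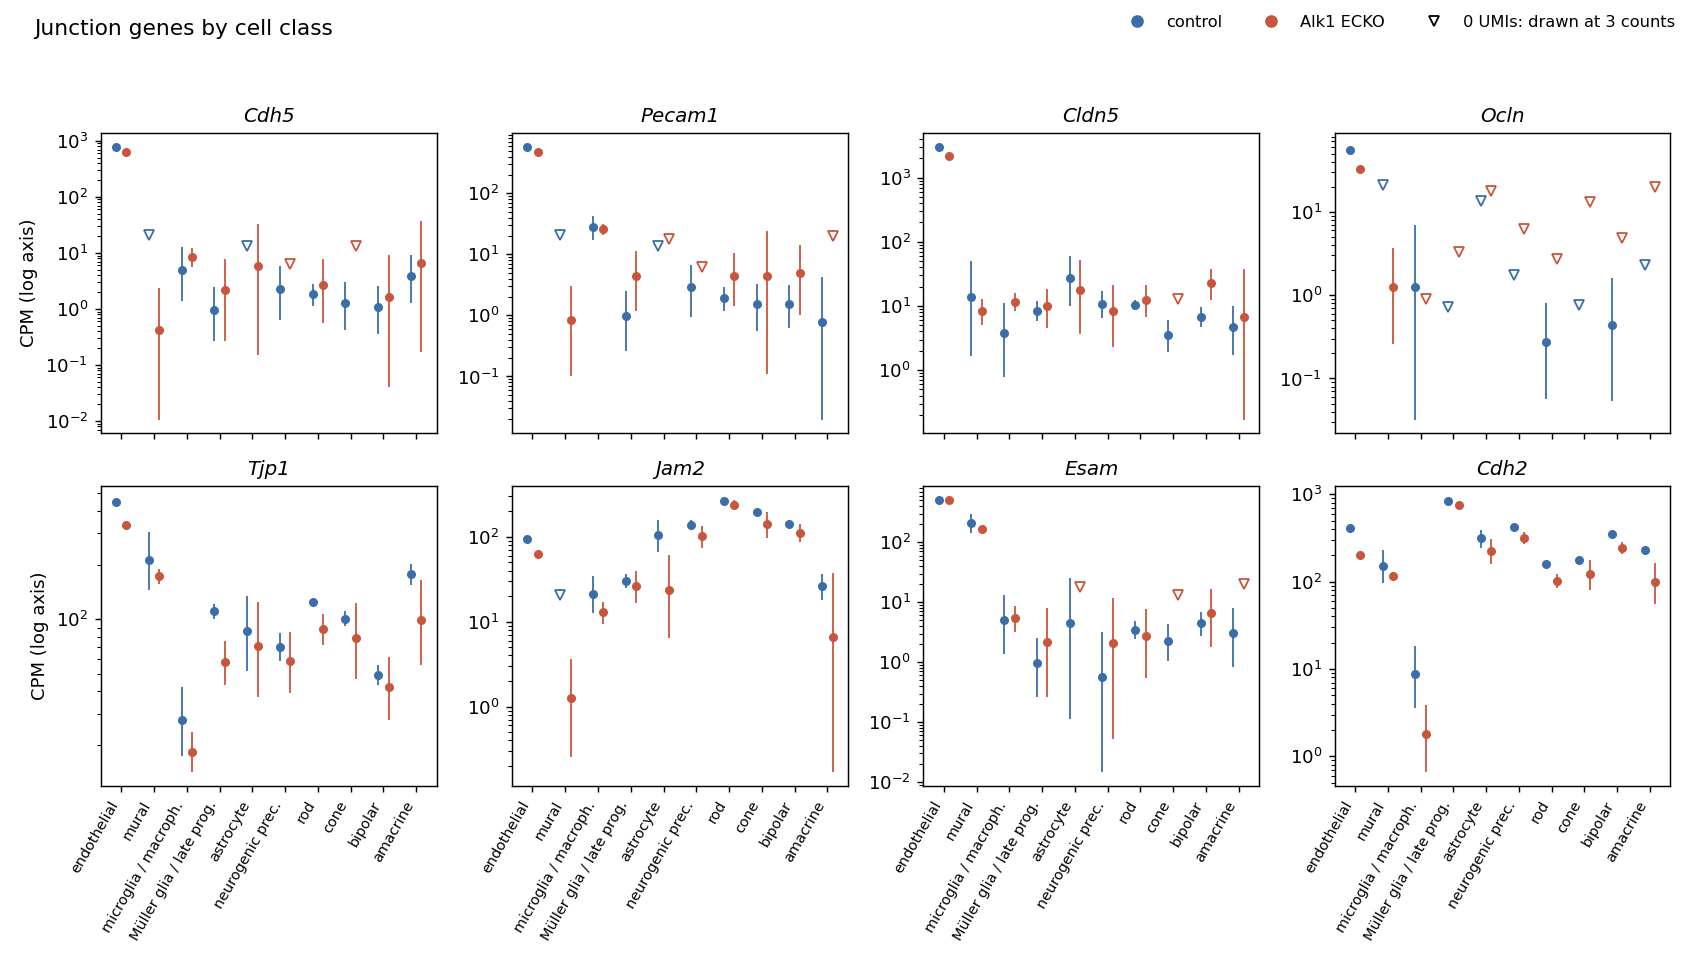
CPM (log axis) of each of the 8 junction genes in 10 cell classes, control in blue and the library labelled Alk1 ECKO in red, with bars for the 95% counting interval and open triangles at the level of 3 counts where no UMI was found. Cdh5, Pecam1, Cldn5 and Ocln are high in endothelial cells only, Esam also in mural cells, and Tjp1, Jam2 and Cdh2 in several classes.

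Cdh5 (chr8:104101625-104144511, plus strand, mm10) codes for VE-cadherin, the main adherens junction cadherin of endothelium. Control endothelial cells held 769.9 CPM (753 to 787), those labelled Alk1 ECKO 631 CPM (623 to 639). No other named class passed 8.35 CPM in either library, the value of microglia or macrophages labelled Alk1 ECKO. Mural cells of that library, pericytes and smooth muscle cells that sit on the same vessels, had 1 Cdh5 UMI in 150 cells.

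Cdh2 (chr18:16588877-16809246, minus strand) codes for N-cadherin, which joins neural cells to each other and endothelial cells to pericytes. Müller glia or late progenitors led, control with 847 CPM (819 to 875), the library labelled Alk1 ECKO with 744 CPM (689 to 802). Control neurogenic precursors followed with 426 CPM (396 to 458) and control endothelial cells with 406 CPM (393 to 418), and these intervals overlap. Control bipolar cells had 355 CPM (338 to 373) and astrocytes 312 CPM (243 to 395), again with overlapping intervals, ahead of amacrine cells with 229 CPM, cones with 179 CPM and rods with 157 CPM. In the library labelled Alk1 ECKO the order changed for endothelial cells, which at 201 CPM (196 to 205) lay below neurogenic precursors at 317 CPM (268 to 371) and bipolar cells at 244 CPM (207 to 287). Microglia or macrophages held little Cdh2, 8.83 CPM and 1.79 CPM.

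Cldn5 (chr16:18776847-18778262, plus strand) codes for claudin-5, the main strand protein of endothelial tight junctions in brain and retina. It stood at 3003 CPM in control endothelial cells and 2196 CPM in those labelled Alk1 ECKO. The next class was far below, control astrocytes with 27.1 CPM from 6 UMIs in 21 cells. Ocln (chr13:100496507-100552718, minus strand), the gene of occludin, stood at 55.7 CPM (51.3 to 60.4) and 32.5 CPM (30.7 to 34.4). Outside endothelial cells no named class had more than 3 Ocln UMIs in a library.

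Tjp1 (chr7:65296165-65527781, minus strand) codes for ZO-1, a scaffold under tight junctions and under adherens junctions of many tissues. All 10 classes held it in both libraries. Endothelial cells led, control with 450.3 CPM (437 to 463), the library labelled Alk1 ECKO with 332 CPM (326 to 338). Mural cells came next, 215 CPM (146 to 305, from 31 UMIs in 11 cells) in control and 174 CPM (158 to 191) in the library labelled Alk1 ECKO. In control, amacrine cells had 178 CPM (155 to 202), rods 125 CPM and Müller glia or late progenitors 111 CPM. The mural and amacrine intervals overlap, so their order is not resolved.

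Pecam1 (chr11:106654217-106750628, minus strand) had a second, low level in immune cells. Its protein, PECAM1 or CD31, is known on endothelial cells, platelets and leukocytes. Control endothelial cells held 566 CPM (552 to 581), those of the library labelled Alk1 ECKO 474 CPM (467 to 481). Microglia or macrophages held 27.8 CPM (17.4 to 42.0) and 25.7 CPM (20.5 to 31.7), above the 1.92 CPM of control rods, while Cdh5 in the same cells was 5.05 CPM and 8.35 CPM. Since beads against CD31 chose the cells, an effect of the beads on which cells carry Pecam1 was not tested.

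Esam (chr9:37528078-37538319, plus strand), the gene of an endothelial cell-selective adhesion molecule, was shared by vessel cells of both kinds. It stood at 505 CPM (492 to 519) and 497 CPM (490 to 504) in endothelial cells, and at 208 CPM (140 to 297) and 165 CPM (149 to 182) in mural cells. The control mural value comes from 30 UMIs in 11 cells. Mural cells held 1 Cdh5 UMI and 2 Pecam1 UMIs beside 396 Esam UMIs in the library labelled Alk1 ECKO. Esam in the other classes was 6.52 CPM or less.

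Jam2 (chr16:84774123-84825928, plus strand), the gene of JAM-B, was the only one of the 8 with its highest level in neurons. Rods held 266 CPM (256 to 276, control) and 239 CPM (212 to 270, labelled Alk1 ECKO), cones 194 CPM and 139 CPM, and bipolar cells 142 CPM and 111 CPM. Endothelial cells held 94.7 CPM (88.9 to 101) and 61.9 CPM (59.4 to 64.4). With each cell thinned to 2000 UMIs, 40.7% of 2266 control rods and 19.9% of 301 control endothelial cells had a Jam2 UMI (526 rods and 8 endothelial cells were too shallow and left out).

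Cells holding a UMI of a gene were counted at equal depth, since control endothelial cells had a median of 19370 UMIs and those labelled Alk1 ECKO 15746. Cells under 5000 UMIs were left out, a larger part of the library labelled Alk1 ECKO than of control. Sub-clusters 2 and 3, described below, had medians under 5000 UMIs and came almost wholly from that library. The shares thus cover the deeper cells only. With cells thinned to 5000 UMIs, which left 286 control and 913 labelled Alk1 ECKO endothelial cells, the largest differences were in Cdh2, found in 79.0% (73.8 to 83.6) and 58.6% (55.3 to 61.8), and Jam2, found in 44.4% (38.6 to 50.4) and 27.9% (25.0 to 31.0). Cdh5 was found in 94.8% and 93.0%, Esam in 90.9% and 90.1%, Cldn5 in 100% and 99.3%, Pecam1 in 92.7% and 87.8%, Tjp1 in 80.4% and 75.0% and Ocln in 27.3% and 19.6%. At least 6 of the 8 genes were found together in 73.8% of control and 51.0% of labelled Alk1 ECKO endothelial cells. None of these endothelial cells lacked all 8. Cells with at least 6 were 40 of 69 control and 89 of 223 labelled Alk1 ECKO in sub-cluster 0. They were 17 of 23 and 180 of 255 in sub-cluster 1, and 18 of 32 and 34 of 70 in sub-cluster 8. In sub-cluster 4 the order was the other way, with 116 of 140 and 18 of 20. The part of sub-cluster makeup in the pooled difference was not tested. In rods thinned in the same way 0 of 569 control cells had 6 or more, and 0.527% had Cdh5.

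The 9 endothelial sub-clusters differed in these genes, and differed in number between the libraries. Sub-cluster 4 (led by Spock2, Apoe and Slco1c1) held barrier capillary markers and 145 of the 309 control cells but 27 of the 1262 labelled Alk1 ECKO. Sub-clusters 0 (histone genes such as Hist1h1b) and 8 (led by Ccnb2) held cell cycle markers, with 73 and 233, and 32 and 73 cells. Sub-cluster 3 (led by Mgp, Fbln2 and Cd74) held arterial and MHC class II markers, with 0 and 184 cells, and sub-cluster 5 (led by Hba-a1, Angpt2 and Kcne3) tip cell markers and haemoglobin transcripts, with 4 and 124. Sub-clusters 1 (led by Cxcl12, 27 and 265 cells), 2 (led by Tmsb10, 10 and 230), 6 (led by Apod, 3 and 102) and 9 (led by Six3os1, 15 and 24) stay unnamed. A sub-cluster mostly of 1 library may be that library, not a type.

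**Figure D2:**
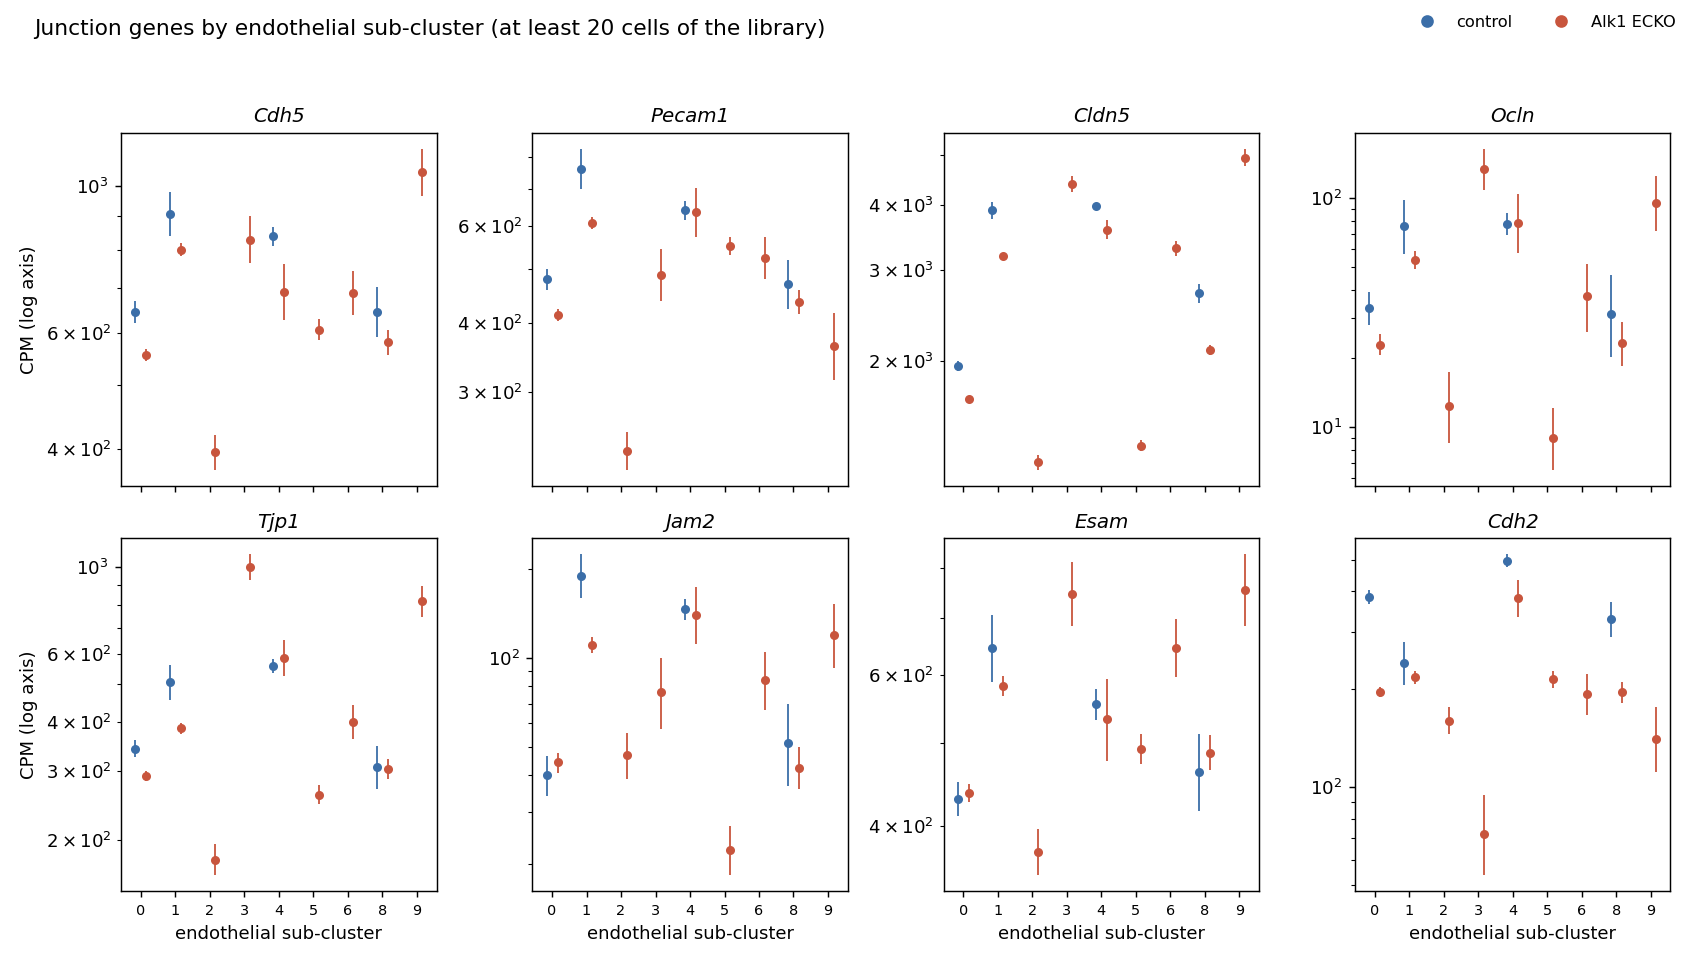
CPM (log axis, each panel with its own range) of the 8 genes in endothelial sub-clusters with at least 20 cells in a library, control in blue and the library labelled Alk1 ECKO in red, with bars for the 95% counting interval. Ocln and Tjp1 peak in sub-cluster 3, Cdh2 is lowest there, and Ocln and Jam2 are lowest in sub-cluster 5.

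Within the library labelled Alk1 ECKO, Ocln had the widest range, from 9.0 CPM (6.52 to 12.1) in the tip cell sub-cluster 5 to 134 CPM (109 to 164) in the arterial sub-cluster 3, a 14.9-fold difference. The 4 control cells of sub-cluster 5 held 1 Ocln UMI. Jam2 was also lowest in sub-cluster 5, at 22.4 CPM (18.4 to 27.1), against 140 CPM (112 to 173) in the barrier capillary sub-cluster 4. Cldn5 in sub-cluster 5 was 1374 CPM, next to the lowest value of 1275 CPM in sub-cluster 2 and below 3590 CPM in sub-cluster 4. Pecam1 did not share this pattern, with 551 CPM in sub-cluster 5 against a median of 489 CPM over the 9 sub-clusters. The haemoglobin and other erythroid markers that came with sub-cluster 5 summed to 1002 CPM there and to 3.33 CPM in sub-cluster 4. They were not particular to sub-cluster 5, with 567 CPM in sub-cluster 0 of that library and 554 CPM in control cells of sub-cluster 4. The part of these markers in the differences above was not tested.

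In the library labelled Alk1 ECKO, sub-cluster 3 combined high Tjp1 and Ocln with low Cdh2. This was not particular to it, since sub-cluster 9 had the second highest Tjp1 and Ocln and the second lowest Cdh2. In sub-cluster 3 Tjp1 reached 1002 CPM (929 to 1078), the highest of the 9 sub-clusters, against 178 CPM (162 to 194) in sub-cluster 2. Cdh2 was at its lowest, 72.0 CPM (53.6 to 94.7), against 381 CPM (334 to 434) in sub-cluster 4, while Cdh5 at 829 CPM (764 to 899) was second only to sub-cluster 9. Of the Cdh2 and Cdh5 UMIs together, Cdh2 made up 7.99% (6.01 to 10.4) in sub-cluster 3, 11.9% (9.48 to 14.6) in sub-cluster 9 and 21.4% to 35.6% in the other 7 sub-clusters of that library. Sub-cluster 3 was shallow, with a median of 2388 UMIs per cell, and its mural and microglial markers summed to 208 CPM and 499 CPM, against 99.6 CPM and 65.5 CPM over all endothelial cells of that library. Their part was not tested.

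The small sub-cluster 9 held the highest Cdh5, Cldn5 and Esam of the library labelled Alk1 ECKO, at 1048, 4945 and 755 CPM. Its 15 control cells had 1447 CPM of Cdh5 (1325 to 1577) and 3753 CPM of Cldn5. Pecam1 in those cells was 518 CPM in control and 363 CPM in the library labelled Alk1 ECKO, the latter below every other sub-cluster but 2. In the library labelled Alk1 ECKO, sub-cluster 2 was lowest for Cdh5, Pecam1, Cldn5, Tjp1 and Esam, with a median of 3094 UMIs per cell. Among the 4 sub-clusters with 20 control cells or more, sub-cluster 1 led for Cdh5 (906 CPM), Pecam1 (760 CPM), Jam2 (189 CPM) and Esam (645 CPM), and sub-cluster 4 for Cldn5 (3984 CPM), Ocln (77.4 CPM), Tjp1 (557 CPM) and Cdh2 (497 CPM). Between these 2 sub-clusters the Cdh5, Cldn5, Ocln and Tjp1 intervals overlap.

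Over all endothelial cells, Cdh2 had the lowest ratio of the 8 genes, library labelled Alk1 ECKO over control, and Esam alone had an interval that holds 0. The share of all genes with an interval below 0 was not counted, and the median log2 ratio of all measured genes was itself -0.22. Cdh5 and Pecam1 lay near that median, with 43.9% and 46.4% of measured genes below them. Cdh2 went from 406 to 201 CPM, a log2 ratio of -1.01 (-1.07 to -0.96). Ocln was lower by a log2 ratio of -0.78 (-0.92 to -0.63), Jam2 by -0.61 (-0.72 to -0.51), Cldn5 by -0.45 (-0.47 to -0.43) and Tjp1 by -0.44 (-0.49 to -0.39). Cdh5 had -0.29 (-0.32 to -0.25), Pecam1 -0.26 (-0.30 to -0.21) and Esam -0.02 (-0.07 to 0.02).

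A gene was called lower where the control CPM exceeded the other by 25% or more, and higher in the opposite case. So counted, 5 of the 8 genes were lower (Cdh2, Ocln, Jam2, Cldn5 and Tjp1) and 0 higher, beside 40.6% of all 12494 measured genes lower and 12.5% higher. The median of the 8 was -0.45, that of all measured genes -0.22. Relative to that median, 3 genes were lower (Cdh2, Ocln and Jam2), beside a background of 23.8%, and 0 higher, beside 24.9%. With 8 genes these counts are descriptions. The makeup of sub-clusters differed between the libraries: with the sub-clusters weighted alike in both, the count of lower genes was 2 and the median -0.23, with Cdh2 at -0.55, Jam2 at -0.34, Ocln at -0.29, Cldn5 at -0.25 and Tjp1 at -0.13. The share of all genes called lower and their median were not computed under that weighting. As the mean of per-cell CPM, Tjp1 was -0.08 and Ocln -0.39.

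**Figure D3:**
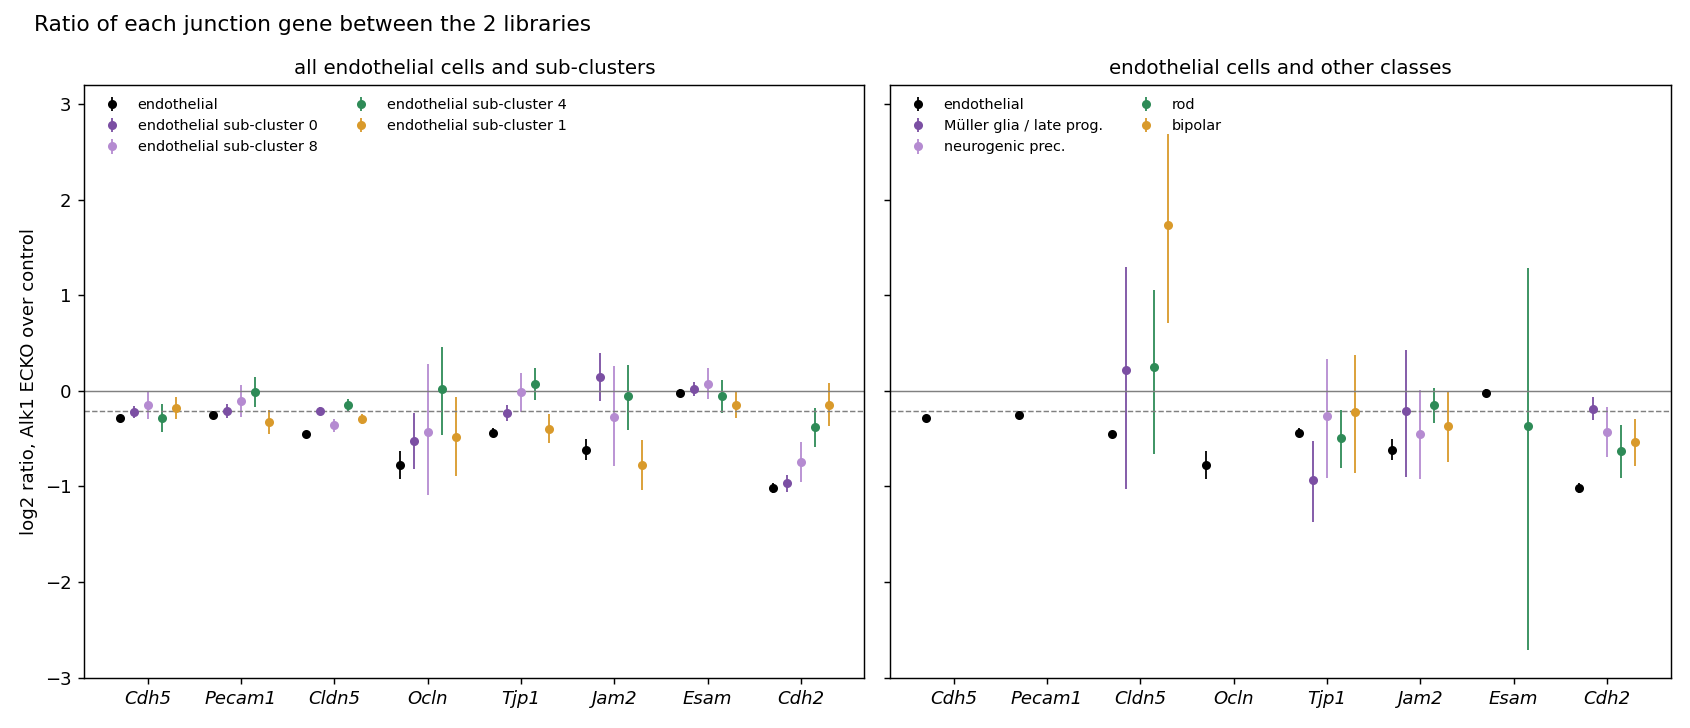
Log2 ratio of each gene, library labelled Alk1 ECKO over control, with 95% counting intervals, in all endothelial cells and sub-clusters 0, 8, 4 and 1 on the left and in other classes on the right; solid line at 0, dashed line at the median of all measured genes in endothelial cells, -0.22. Cdh2 is below the dashed line in endothelial cells and sub-clusters 0, 8 and 4, and below 0 in every class shown. Genes under 30 UMIs over both libraries are left out.

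Within sub-clusters of at least 20 cells in each library, Cdh2 remained lower in 3 of 4. It went from 383 to 196 CPM in the cycling sub-cluster 0 (log2 ratio -0.97, -1.06 to -0.88), from 328 to 196 CPM in the cycling sub-cluster 8 (-0.74, -0.95 to -0.53) and from 497 to 381 CPM in the barrier capillary sub-cluster 4 (-0.38, -0.58 to -0.18). In sub-cluster 1 it went from 241 to 218 CPM (-0.15, -0.37 to 0.08), within counting error. The intervals of sub-clusters 0 and 4 do not overlap, while those of 8 and 4 do.

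The rest of the genes moved less evenly. In sub-cluster 4, Cdh2 alone of the 8 was called lower, beside 25.5% of all genes, and Ocln stood at 77.4 and 78.3 CPM, Jam2 at 146 and 140 CPM and Tjp1 at 557 and 586 CPM. In sub-cluster 0 Ocln (33.1 to 23.0 CPM) and Cdh2 were lower, beside 36.0%, and in sub-cluster 8 Cldn5 (2702 to 2105 CPM), Cdh2 and Ocln, the last with an interval that holds 0, beside 25.9%. In sub-cluster 1 Jam2 (189 to 110 CPM, log2 ratio -0.78), Ocln, Tjp1 and Pecam1 were lower, beside 36.0%. Jam2 had intervals that hold 0 in sub-clusters 0 (0.15, -0.10 to 0.40), 4 (-0.06, -0.41 to 0.27) and 8 (-0.28, -0.78 to 0.26), the last also holding the value over all endothelial cells. None of the 8 was called higher in sub-clusters 0, 1, 4 and 8, beside 12.7%, 21.9%, 18.1% and 23.3% of all genes. Relative to the median of each sub-cluster the same genes were lower in 0 (beside 22.3% of all genes), 4 (24.1%) and 8 (24.0%), while in sub-cluster 1 Jam2 and Ocln alone were (29.1%). None was higher on that scale, beside 23.2%, 19.9%, 24.8% and 28.7%.

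Cdh2 made up 34.5% (33.7 to 35.4) of the Cdh2 and Cdh5 UMIs of control endothelial cells and 24.1% (23.7 to 24.6) of those labelled Alk1 ECKO. The shares were 37.2% and 26.1% in sub-cluster 0 and 33.7% and 25.2% in sub-cluster 8. They were 37.2% and 35.6% in sub-cluster 4 and 21.0% and 21.4% in sub-cluster 1, where the intervals overlap. Per cell at 5000 UMIs, 212 of 286 control and 497 of 913 labelled Alk1 ECKO endothelial cells held both cadherins, and 59 and 352 held Cdh5 without Cdh2. The pooled difference was not seen in every sub-cluster. Both were held by 47 of 69 and 112 of 223 cells in sub-cluster 0, and by 21 of 32 and 44 of 70 in sub-cluster 8. In sub-cluster 4 they were held by 119 of 140 and 18 of 20 cells, and in sub-cluster 1 by 8 of 23 and 150 of 255.

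Cdh2 is abundant in Müller glia and neurons, so the transcripts of those classes in endothelial cells were set beside it. The 12 rod markers summed to 85.8 CPM in control and 12.6 CPM in labelled Alk1 ECKO endothelial cells, 0.376% and 0.0449% of their level in rods. The 16 markers of Müller glia or late progenitors summed to 1096 and 847 CPM, and Apoe, Glul and Ccnd1 among them were also leading genes of endothelial sub-clusters, with a median of 0.942% and 0.439% of their level in their own class and Fgf15 and Aqp4 at 0 in control. Cdh2 itself stood in control Müller glia or late progenitors at 209% of its endothelial level. In sub-cluster 4 of the second library 9 of these 16 markers were at 0, among 600347 UMIs of 27 cells, but the 16 summed to 1034 CPM and the rod markers to 125 CPM, above the 12.6 CPM of all its endothelial cells. The part of such transcripts in the Cdh2 values was not tested. Mural markers went the other way from Cdh2, 11.01 CPM in control and 99.6 CPM in the library labelled Alk1 ECKO.

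Cdh2 was also called lower in rods, bipolar cells and neurogenic precursors, but not in Müller glia or late progenitors. The log2 ratio was -0.63 (-0.92 to -0.35) in rods, -0.54 (-0.79 to -0.30) in bipolar cells, -0.43 (-0.69 to -0.17) in neurogenic precursors and -0.19 (-0.31 to -0.07) in Müller glia or late progenitors. The medians of all measured genes in these classes were -0.15, -0.17, -0.18 and -0.17. Tjp1 was lower in Müller glia or late progenitors, 111 to 58 CPM (-0.93, -1.37 to -0.52), and in rods, 125 to 88.4 CPM (-0.50, -0.81 to -0.20). In rods 3 of 5 measured members were called lower (Cdh2, Tjp1 and Esam), beside 36.8% of genes, and 0 higher beside 16.2%. Esam there had 38 and 3 UMIs and an interval that holds 0. In bipolar cells Cdh2 and Jam2 of 4 measured were lower, beside 38.8%, and Cldn5 higher, beside 16.6%. In neurogenic precursors Cdh2 and Jam2 of 3 measured were lower, the latter with an interval that holds 0, beside 39.4%, and 0 higher beside 16.8%. In Müller glia or late progenitors Tjp1 alone of 4 was lower, beside 37.2%, and 0 higher beside 11.9%. In microglia or macrophages 2 of 5 were lower beside 36.3% and 2 higher beside 17.6%, all with intervals that hold 0. Relative to each class median, Cdh2 was called lower in rods and bipolar cells (beside 27.3% and 28.3% of genes) and not in neurogenic precursors or Müller glia or late progenitors. In neurogenic precursors no member was lower (beside 28.8%) or higher (beside 27.2%) on that scale. Tjp1 was lower on that scale in rods and in Müller glia or late progenitors (beside 26.2%), Cldn5 higher in rods, bipolar cells and Müller glia or late progenitors (beside 25.5%, 26.9% and 22.3%), and the microglial or macrophage counts did not change (beside 27.5% lower and 27.1% higher). The Cldn5 ratios had intervals that hold 0 in rods (0.25, -0.66 to 1.06) and in Müller glia or late progenitors (0.21, -1.03 to 1.30). Members with too few UMIs in a class were left out of these counts. With 1 library per genotype, a difference by genotype in endothelial Cdh2 and a difference between these libraries as such cannot be told apart.

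The other genes of the junctions were described from 7 lists of 73 genes, 55 of them measured in endothelial cells. Of these, 24 were called lower and 4 higher, again beside 40.6% and 12.5%, with a median of -0.23. Relative to the median of all genes 14 were lower and 12 higher, beside 23.8% and 24.9%. Junction scaffold and polarity genes had the lowest median, -0.50, with 10 of 14 lower and 0 higher, and 5 lower and 0 higher relative to the median of all genes. Lower and higher on that scale were 3 and 1 of 13 adherens junction genes and 1 and 1 of 4 tight junction strand genes. They were 1 and 2 of 5 immunoglobulin-like adhesion genes and 2 and 3 of 7 RAP1 and cerebral cavernous malformation genes. Other cadherins had 1 and 4 of 6, and transcriptional regulators 1 and 1 of 6. Amot, the gene of an angiomotin that binds polarity proteins at junctions, went from 19.6 to 8.31 CPM (-1.24, -1.50 to -0.98) and Prkci, an atypical protein kinase C, from 9.95 to 5.52 CPM (-0.85), while Pard6a (0.06) and Amotl2 (0.07) had intervals that hold 0.

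Adherens junction genes had 6 of 13 lower and 1 higher, with a median of -0.17. Nectin1 (-1.09, from 45 and 77 UMIs) and the catenin-like Pkp4 (69.7 to 38.7 CPM, -0.85) were lowest and Nectin2 (0.10) and Plekha7 (0.41, from 13 and 63 UMIs, with an interval that holds 0) highest. Tight junction strand genes had 2 of 4 lower: Lsr, a protein of tricellular contacts, went from 95.1 to 63.8 CPM (-0.58, -0.68 to -0.47) and Cldn12 had -0.44 with an interval that holds 0. Marveld2 had -0.22, and Cldnd1 went from 50.5 to 62.3 CPM (0.30, 0.17 to 0.44). Of 5 immunoglobulin-like adhesion genes Cd99l2 (-0.76) and Igsf5 (-0.48, from 23 and 60 UMIs, with an interval that holds 0) were called lower, and Jam3 (0.31) and Icam2, at 215 and 246 CPM (0.19), lay above the median of all genes.

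Heg1, a receptor that binds KRIT1 of the cerebral cavernous malformation complex at junctions, went from 115 to 55.1 CPM (-1.06, -1.16 to -0.95) and Krit1 from 76.0 to 50.3 CPM (-0.60, -0.72 to -0.47). Their partner Pdcd10 (170 to 204 CPM, 0.26) and the small GTPase Rap1a (184 to 233 CPM, 0.34) were on the other side, and the list of 7 measured genes had 2 lower, 1 higher and a median of 0.11. Other cadherins had 1 of 6 lower and 2 higher: Cdh11 had -0.64, Pcdh1 -0.31, Pcdh17 0.51 (92.4 to 131 CPM) and Cdh4 0.52, the last from 5 and 26 UMIs with an interval that holds 0. Of 6 transcriptional regulators of cadherins and claudins Zeb2 was lower, from 31.1 to 15.6 CPM (-0.99, -1.19 to -0.79), while Zeb1 (-0.02), Snai1 (0.23) and Snai2 (-0.27) had intervals that hold 0.

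**Figure D4:**
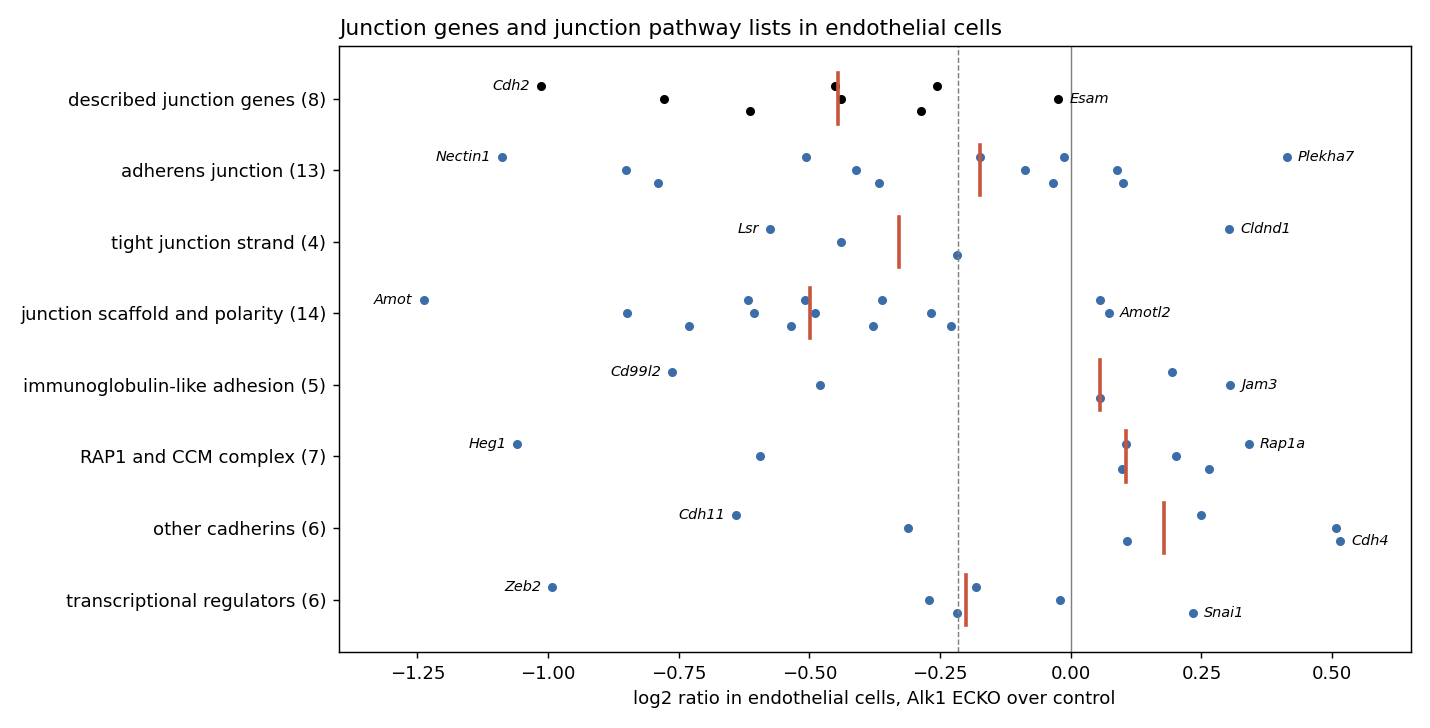
Log2 ratio in endothelial cells, library labelled Alk1 ECKO over control, of the 8 junction genes (black) and of the measured genes of 7 junction lists (blue), with the number of genes in brackets, the median of each list as a red bar and the lowest and highest gene named; the dashed line is the median of all measured genes, -0.22. Scaffold and polarity genes lie lowest as a list, and Amot, Nectin1, Heg1, Cdh2 and Zeb2 are the lowest genes of their rows.

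Over 12 points (6 classes in 2 libraries, 6680 genes compared, log2 of CPM + 1) the genes whose levels ran most like each member were, with Pearson's r, Tmem252 (0.987), Erg (0.985) and Sema6d (0.981) for Cdh5, and Apold1 (0.988), Grap (0.985) and Gimap6 (0.978) for Pecam1. For Cldn5 they were Ly6c1 (0.992), Vwa1 (0.990) and Ptprb (0.990), for Ocln Aplnr (0.992), Tnfsf10 (0.992) and Tbx1 (0.991), and for Esam Rasip1 (0.987), Fgd5 (0.987) and Prnd (0.985). Tjp1 ran with Raly (0.971), Hist1h1a (0.961) and Smc4 (0.956), Jam2 with Lurap1l (0.975), Htra1 (0.973) and Usp6nl (0.963), and Cdh2 with Sorbs2 (0.992), Nectin3 (0.973) and Nfib (0.971). Cdh2 and Cdh5 had an r of -0.04 and Jam2 and Cdh5 -0.09, while Cdh5 and Pecam1 had 0.967. Points of a library share its depth and free RNA, so these values are descriptions.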

How the data were processed

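The labels' protocols name a 10x Genomics 3′ kit of version 3.1 for the control library and the library labelled Alk1 ECKO. The deposited matrices hold unnormalised UMI counts, and per the file headers Cell Ranger 5.0.1 made them; mm10, FastQC 0.11.9 and Cell Ranger 6.1.1 stand in the submitters' processing notes. The filter that chose the barcodes is not given in the sources used here.

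Barcodes under 1000 UMIs, under 500 genes or over 10% mitochondrial UMIs were dropped, leaving 7909 and 4237 cells. Scrublet (scanpy 1.11.5) called 0 and 1 doublets, so the highest scores were removed at 0.8% per 1000 cells (500 and 144 cells), a choice made after that failure. All retained cells were clustered jointly, with no correction for library (leidenalg 0.10.2, resolution 1, 3000 variable genes, 30 components, 15 neighbours); endothelial cells were sub-clustered at 0.6. The 8 members and the junction lists were kept out of the variable genes and of naming. A cluster was named by at least 3 markers of a list among its top 20 genes; clusters were set aside or left unnamed for mitochondrial UMIs of under 1% (median), a doublet score over 0.12 or markers of another class. These rules were written after clusters had been seen. A sub-cluster with endothelial and mural transcripts (4 and 101 cells) was left out.

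UMIs were summed per class and library. The 95% intervals reflect counting error alone: Poisson (exact) for CPM, binomial given the total (exact) for ratios, and Clopper-Pearson for percentages of cells. A gene was measured from 30 UMIs over both libraries. On simulated Poisson counts (12494 genes, 200 changed) the intervals covered the true ratio for 95.6% of unchanged genes. The intervals assume the same model, so this checks the calculation only. Spread between cells or libraries was not simulated. The named genes are the 8 members, the 2 highest and 2 lowest measured genes of each list, 3 genes per member by correlation among genes with at least 50 CPM in a class, and sub-cluster leaders; Acvrl1 was added as the floxed gene. Gene positions are from GENCODE (mm10). The members and lists were chosen with earlier results of these data known.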

Additional observations from a re-analysis of the deposited data

Results flagged for a closer look

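Cldn5 was higher in bipolar cells of the library labelled Alk1 ECKO, with a log2 ratio of 1.74 (0.71 to 2.69) from 31 and 14 UMIs, and lower in endothelial cells, -0.45. The directions are opposite and the difference between them was not tested. Cldn5 in bipolar cells stood at 0.228% of the endothelial level in control and at 1.04% in the library labelled Alk1 ECKO. Over the 24 endothelial markers the median of the same measure was 0.275% and 0.727%, so endothelial transcripts in bipolar cells moved with it, and their part in the Cldn5 difference was not tested.

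The 1245 barcodes with a low mitochondrial share in the library labelled Alk1 ECKO entered no comparison above. They had a median of 1873 UMIs and held Cldn5 at 1364 CPM, Esam at 630.4 CPM, Cdh5 at 155 CPM, Pecam1 at 145 CPM, Jam2 at 55.5 CPM, Cdh2 at 35.4 CPM, Tjp1 at 29.3 CPM and Ocln at 14.0 CPM. Against the retained endothelial cells of the same library, Esam stood above their 497 CPM and the other 7 genes below their values. For Jam2 this order is not resolved, since its interval in these barcodes, 47.7 to 64.2 CPM, covers the 61.9 CPM of endothelial cells. The control library had 3 such barcodes, with no UMI of the 8 genes; the exact upper limit for each is 1033 CPM.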

How the results depend on the processing

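Over 15 alternatives, 3 of them chosen after seeing the data, Cdh2, Ocln, Jam2, Cldn5, Tjp1, Cdh5 and Pecam1 kept the sign of their endothelial ratio in each, and Esam changed sign in 6. Cdh2 ranged from -1.11 with low-mitochondrial barcodes counted to -0.55 with the same makeup of sub-clusters, Ocln from -0.90 to -0.29, Jam2 from -0.88 to -0.34, and Tjp1 from -0.60 to -0.08, the last as the mean of per-cell CPM. The median of the 8 genes, -0.45, became -0.23 relative to all genes, -0.30 for per-cell CPM, -0.38 at 5% mitochondrial UMIs, -0.52 with low-mitochondrial barcodes, -0.59 without cycling sub-clusters, -0.49 without the MHC class II sub-cluster, -0.23 with the same makeup and -0.36 with cells thinned. It was -0.49 with the sub-cluster of mural transcripts and -0.40 without sub-cluster 2, both chosen after seeing the data. The count of 5 lower genes became 3 relative to all genes (beside 23.8% of genes) and 2 with the same makeup. Elsewhere it lay between 4 and 7. Apart from the 23.8%, shares of all genes under these alternatives were not computed. The causes were not tested. No paired analysis was possible because each genotype had 1 library and the result comes from no test. Depth limits Ocln and Jam2, found in fewer than 50% of thinned endothelial cells.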
